A study of Mus musculus with 24 samples.

Results

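A group of 6 miRNAs known for roles in blood and immune cells was followed through mouse eye tissues: mmu-miR-223-3p, mmu-miR-146a-5p, mmu-miR-142-3p, mmu-miR-142-5p, mmu-miR-155-5p and mmu-miR-150-5p, written below without the mouse prefix. They were chosen by name, as the array targets whose mature name equals 1 of these, which gave 6 of the 696 mouse miRNAs on the array. MicroRNA levels were measured on 24 single-colour arrays of RNA from C57BL/6J mice at 34 days of age. A frosted diffuser had covered the right eye for 10 days from postnatal day 24, a treatment called form deprivation that makes the eye short-sighted, and the uncovered left eye was the control. The groups were sclera titled myopia and titled control (3 arrays each), retina titled myopia and titled control (3 each), and whole eye myopia and control (6 each).

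For sclera and retina, the sample titles and the other labels name the 2 arms in opposite ways, so the word "titled" is kept and the direction of these arms is unsettled. For whole eye, title, source and phenotype agree, while a sentence of the description names the opposite arm. The control eye belonged to the same treated animal, so no group came from an untreated mouse. The labels give 15 mice in the series, of which 9 gave sclera, 9 retina and 6 whole eyes, and do not say which animals or pools an array held. A p-value here therefore sets a difference against the spread of the arrays alone, and that spread may be technical in part.

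A miRNA is a short RNA that guides a silencing complex to messenger RNAs, mainly through its seed, bases 2 to 8 from its 5′ end, and lowers their translation or stability. miR-223 is abundant in neutrophils and other myeloid cells. miR-142 is made in nearly all blood lineages, and its hairpin yields 2 strands, 3p and 5p. miR-150 is abundant in mature lymphocytes, whereas miR-155 and miR-146a rise when macrophages and lymphocytes are activated, with miR-146a acting as a brake on NF-κB signalling. In the eye such cells include microglia of the retina, resident macrophages of choroid and sclera, and cells within blood vessels.

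The mature sequences below are shown because the seed decides which members could share targets, and because miR-146a-5p and its near copy miR-146b-5p changed unequally between these tissues. Capitals mark the seed. The sequences are RefSeq's, in build GRCm38.p6, where miR-142-3p and miR-142-5p are listed as miR-142a.
miR-223-3p: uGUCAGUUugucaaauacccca
miR-142-3p: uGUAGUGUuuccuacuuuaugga
miR-142-5p: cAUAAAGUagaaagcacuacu
miR-155-5p: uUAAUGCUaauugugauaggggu
miR-146a-5p: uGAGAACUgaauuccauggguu
miR-146b-5p: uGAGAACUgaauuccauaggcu

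No 2 of the 5 members printed share a seed. Among the 530 array miRNAs with a RefSeq sequence, only miR-146b-5p shares a seed with 1 of these members, miR-146a-5p. miR-146a-5p and miR-146b-5p are identical at 20 of 22 bases and differ at G18A and U21C, counted from the 5′ end with the miR-146a-5p base first. In GRCm38.p6, miR-223-3p lies at chrX:96242884-96242905 (plus strand) within the long noncoding gene F630028O10Rik. miR-155-5p lies at chr16:84714143-84714165 (plus strand) within its noncoding host gene Mir155hg. The 2 strands of miR-142 lie at chr11:87756867-87756887 (5p) and chr11:87756903-87756925 (3p), both on the plus strand. The gene Mir142b is also annotated over these positions, and its strand was not looked up. miR-146a-5p lies at chr11:43374435-43374456 (minus strand) and miR-146b-5p at chr19:46342790-46342811 (plus strand). The probes of miR-150-5p are placed at chr7:52377138-52377153 in mm9, the build of the array files.

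Each member was read by 2 probes of 10 spots each. Signals are given as a percentage of each array's 75th percentile, taken over the 237 miRNAs detected on all 24 arrays. Levels are compared between samples for 1 miRNA at a time, since probes differ in brightness. Between 274 and 317 miRNAs were detected per sclera array, 353 and 401 per retina array, and 305 and 357 per whole-eye array. The bright corner control spots averaged 104 to 163 units on sclera arrays, 196 to 576 on retina arrays and 137 to 487 on whole-eye arrays. The part of this in the tissue differences was not tested. Precision is limited by how few arrays a group holds. The tissue labels were set against marker miRNAs. The summed signal of 8 fibroblast and mesenchymal miRNAs (such as miR-199a and miR-214) was 2773% to 3277% in sclera, against 27.7% to 62.7% in retina and 257% to 546% in whole eye. All 8 were detected in both sclera groups, against 6 and 7 in the retina groups. Of these 8, 7 were called higher and 1 lower in sclera than in retina. The 7 retinal neuron and photoreceptor miRNAs (such as miR-124-3p and miR-183-5p) fell in sclera relative to retina (7 of 7, median log2 difference −4.50).

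Sclera had the highest levels of miR-223-3p, miR-146a-5p and miR-142-3p, retina the lowest, and whole eye lay between them, with no overlap between any 2 tissues for these 3 miRNAs. miR-142-5p was detected only on sclera arrays. miR-155-5p was detected on all sclera and whole-eye arrays but on few retina arrays. miR-150-5p had a different pattern, whose tissue order changed with the scaling. In these bulk samples, fewer cells of a type and less RNA per cell cannot be told apart.

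**Figure D1:**
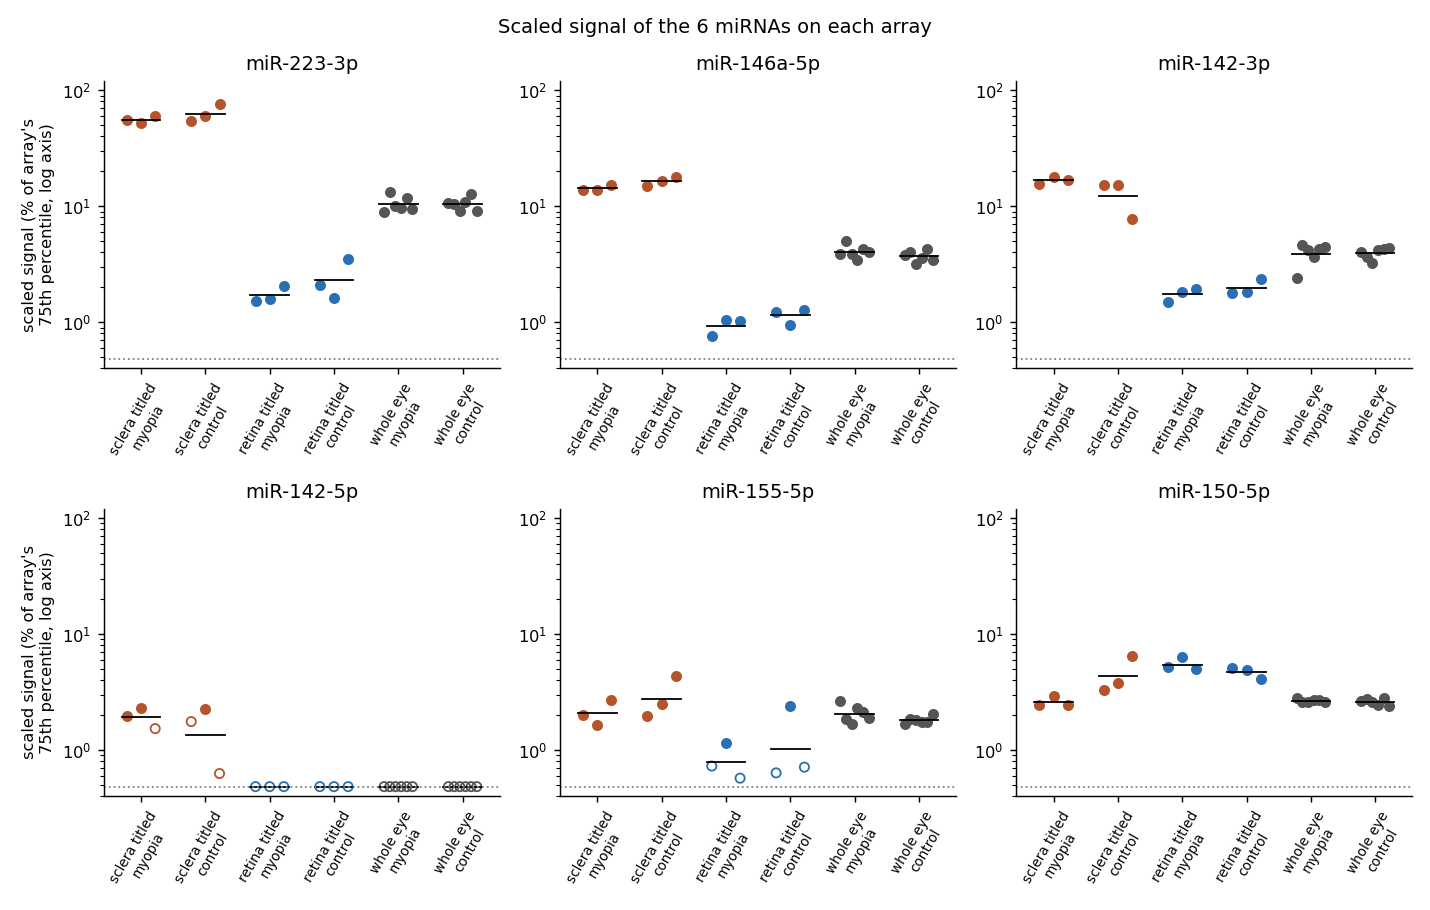
Scaled signal of each of the 6 miRNAs on each of the 24 arrays, as a percentage of the array's 75th percentile (log axis), by group. Filled points are arrays on which the miRNA was detected, open points are those on which it was not, bars are group means on the log scale, and the dotted line is the floor at 0.483%. For miR-223-3p the sclera arrays sit between 52.2% and 75.8%, above all whole-eye arrays (8.88% to 13.3%) and all retina arrays (1.53% to 3.52%).

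miR-223-3p, the myeloid miRNA, was detected on all 24 arrays. It stood at 55.7%, 52.2% and 59.6% on the 3 sclera titled myopia arrays and at 54.2%, 59.9% and 75.8% on the 3 sclera titled control arrays. Retina gave 1.53%, 1.58% and 2.05% on the titled myopia arrays and 2.11%, 1.63% and 3.52% on the titled control arrays. Titled control replicate 3 was the highest of its group in both sclera and retina, and the 2 tissues were far apart. Whole eye ran from 8.88% through a median of 9.85% to 13.3% in the myopia group and from 9.06% through 10.6% to 12.9% in the control group. Sclera exceeded retina by 4.90 on the log2 scale (SE 0.15, 29.9-fold, limma adjusted p = 1.94e-17) and whole eye by 2.50 (SE 0.13, 5.67-fold, limma adjusted p = 3.13e-13). Retina lay below whole eye by a log2 difference of −2.40 (SE 0.13, limma adjusted p = 8.90e-13). Its 2 probes gave log2 ratios of sclera over retina of 5.25 and 3.995, the same direction with different sizes.

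miR-142-5p met the detection filter only through sclera titled myopia, where it is high, so it is left out of the counts of members called between tissues. miR-155-5p is kept, though it met the filter through sclera and whole eye and not through retina. In each retina group 1 of 3 arrays detected it. Its calls against retina, and its part in the counts and medians there, are therefore not read as support. Between sclera and retina, the 5 members without miR-142-5p passed the adjusted threshold of 0.05, 4 higher and 1 lower in sclera. That count says little by itself, because 89.2% of the 426 miRNAs tested were called in this comparison. By direction, 30.5% of all were called higher in sclera and 58.7% lower. The median log2 difference of these 5 was 2.95, and that of all miRNAs tested was −0.81. The sclera and retina arrays did not overlap for 3 of the 5 (miR-223-3p, miR-146a-5p and miR-142-3p), and for 70% of all miRNAs tested. Other scalings and normexp background correction changed the split of calls over all miRNAs. It was 130 higher and 250 lower as reported, 173 and 181 when scaled over all miRNAs, 168 and 197 after quantile normalization, and 245 and 68 with normexp.

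miR-146a-5p, the NF-κB feedback miRNA, had the same order. Its levels were 13.9%, 13.7% and 15.2% in sclera titled myopia and 14.9%, 16.4% and 17.9% in sclera titled control. Retina titled myopia had 0.762%, 1.04% and 1.02%, and retina titled control had 1.24%, 0.953% and 1.29%. The retina values were close to the floor but called detected on all 6 arrays. Whole eye had 3.46% to 5.03% with a median of 3.96% in the myopia group, and 3.15% to 4.31% with a median of 3.71% in the control group. The log2 difference was 3.88 for sclera over retina (SE 0.10, 14.8-fold, limma adjusted p = 1.62e-18), 1.98 for sclera over whole eye (SE 0.09, limma adjusted p = 3.03e-14) and −1.91 for retina over whole eye (SE 0.09, limma adjusted p = 1.15e-13).

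miR-146b-5p, which shares the seed of miR-146a-5p and is encoded on another chromosome, had another order as scaled here. It stood at 1.57% to 2.69% in sclera, where it was detected on 5 of 6 arrays, at 5.63% to 6.55% in retina and at 2.65% to 3.19% in whole eye. Its log2 difference between sclera and retina was −1.41 (SE 0.09, limma adjusted p = 1.01e-11), or −0.60 relative to the median of all miRNAs. This difference was −0.63 when scaled over all miRNAs and −0.40 after quantile normalization, and it turned to 0.79 with normexp (limma adjusted p = 0.0243), where it lay −0.07 from the median. The array tells the 2 apart by probes that differ at 2 letters, shown in capitals in their longest probes.
miR-146a-5p probe: aAccCatggaattcagttc
miR-146b-5p probe: aGccTatggaattcagttc

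The ratio of miR-146a-5p to miR-146b-5p within an array does not depend on the factor by which an array is scaled. Its log2 value ran from 2.42 to 3.51 in sclera, against −2.89 to −2.29 in retina and 0.18 to 0.70 in whole eye. No 2 tissues overlapped, and sclera exceeded retina by 5.30 (exact permutation test over 6 against 6 arrays, two-sided, p = 0.00216, the smallest this test can give, and 0.00216 after adjustment over the 12 ratio comparisons made). These ratios were chosen after the values had been seen, and the p-values do not allow for that choice. The ratios were taken with the scanner software's background subtraction alone. With normexp, where no ratio was taken, the sclera-minus-retina difference was 1.87 for miR-146a-5p and 0.79 for miR-146b-5p. The level of such a ratio reflects probe brightness as well as amount, so only its change between tissues is read. How much cross-binding between the 2 probe sets adds to either signal was not tested.

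**Figure D2:**
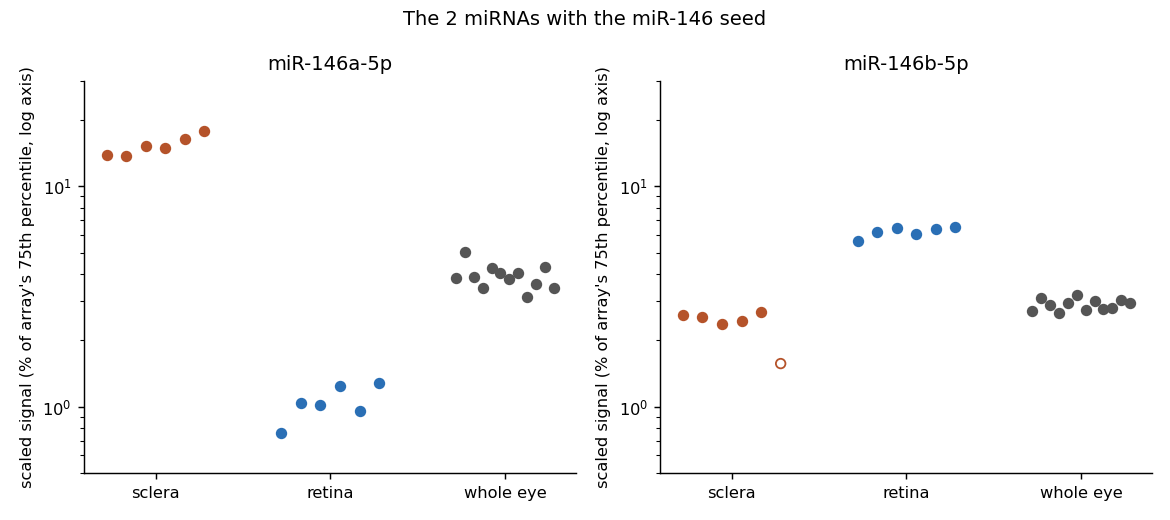
Scaled signal of miR-146a-5p (left) and miR-146b-5p (right) on each array, as a percentage of the array's 75th percentile (log axis), in sclera (6 arrays), retina (6) and whole eye (12). Filled points are detected and open points are not; miR-146a-5p is highest in sclera (13.7% to 17.9%) and miR-146b-5p is highest in retina as scaled here (5.63% to 6.55%), an order against sclera that turned with normexp.

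miR-142-3p, the pan-leukocyte strand, was detected on all 24 arrays. Sclera titled myopia had 15.6%, 17.9% and 17.0%, and sclera titled control had 15.3%, 15.2% and 7.83%. The low value came from titled control replicate 3, the sclera array with the fewest detected miRNAs (274), and it still lay above every retina and whole-eye array. Retina ran from 1.48% to 1.95% on the titled myopia arrays and from 1.79% to 2.36% on the titled control arrays. Whole eye ran from 2.43% through a median of 4.26% to 4.59% in the myopia group and from 3.27% through 4.10% to 4.37% in the control group. Sclera exceeded retina by a log2 difference of 2.95 (SE 0.17, 7.72-fold, limma adjusted p = 5.33e-13) and whole eye by 1.88 (SE 0.14, limma adjusted p = 1.40e-10). Retina was below whole eye by a log2 difference of −1.07 (SE 0.14, limma adjusted p = 6.27e-07). The 2 probes gave nearly the same log2 ratio of sclera over retina, 2.99 and 2.97.

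miR-142-5p, the other strand of that hairpin, was detected on 3 of 6 sclera arrays, on 0 of 6 retina arrays and on 0 of 12 whole-eye arrays. The sclera values were 1.98%, 2.32% and 1.53% in titled myopia, of which the last was not called detected. They were 1.76%, 2.25% and 0.626% in titled control, of which only the middle value was called detected. The lowest of the 6 was again titled control replicate 3, the array that was also lowest for miR-142-3p. Every retina and whole-eye array lay at the floor of 0.483%, so a fold against them is a bound, and no p is given because their spread was set by the floor. As processed here, sclera was at least 3.33-fold above retina and at least 2.44-fold above whole eye, taking the mean of all 6 sclera arrays over the higher of the floor, the lowest detected signal on each array and the miRNA's own signal. The size of this bound depended on the processing: the fitted log2 difference between sclera and retina was 1.74 as reported, 0.33 with the brightest probe, 1.02 within slide 3 and 1.09 with the scanner's total gene signal. Retina and whole eye were both not well above background, and no fold is given between them.

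miR-155-5p, induced on activation of macrophages and lymphocytes, was detected on all sclera and whole-eye arrays and on 2 of 6 retina arrays. Sclera had 2.01%, 1.66% and 2.70% in titled myopia and 1.95%, 2.49% and 4.33% in titled control, where the highest value was again titled control replicate 3. Retina had 0.726%, 1.15% and 0.571% in titled myopia and 0.634%, 2.42% and 0.711% in titled control. Both retina arrays on which it was detected were replicate 2 of their arm and lay on the same slide. Whole eye ran from 1.68% to 2.65% in the myopia group and from 1.68% to 2.02% in the control group. Sclera exceeded retina by a log2 difference of 1.42 (SE 0.27, limma adjusted p = 4.56e-05), with overlapping arrays and with 4 of the 6 retina values not called detected, so its size is uncertain. Within slide 2 alone this difference was 0.28, against 1.54 within slide 1 and 2.42 within slide 3. With the authors' series value table, fitted without array scaling, it was 0.26 (limma adjusted p = 0.151), where the median of all miRNAs was −1.12.

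Sclera and whole eye did not differ beyond the threshold for miR-155-5p, at a log2 difference of 0.32 with an interval of −0.14 to 0.77 (2 SE each side, limma adjusted p = 0.232). That call depended on the processing. The difference passed when scaled over all miRNAs (0.55, limma adjusted p = 0.0257), after quantile normalization (0.63, 0.0197), with normexp (1.14, 0.00117), with the brightest probe (0.41, 0.0150) and within slide 3 (0.89, 0.0108), and it was −0.14 in the series value table and −0.05 within slide 1. Retina was below whole eye by a log2 difference of −1.10 (SE 0.23, limma adjusted p = 0.000163), again with 2 of 6 retina arrays detected. Within slide 2, which held both of those arrays, the difference was −0.17 (limma adjusted p = 0.148), and with normexp it was −0.20 (limma adjusted p = 0.691). The 2 probes of miR-155-5p, printed because they disagree, differ by 1 letter at the end, shown in capitals. The shorter gave a log2 ratio of sclera over retina of 0.18 and the longer 1.66. The shorter averaged 0.419% in sclera, 0.369% in retina and 0.540% in whole eye, near or below the floor of 0.483%, so no direction is read from it.
miR-155-5p probe of 17 letters: acccctatcacaattag
miR-155-5p probe of 18 letters: acccctatcacaattagC

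miR-150-5p, the lymphocyte miRNA, was detected on all 24 arrays and did not follow the other members. Sclera titled myopia had 2.45%, 2.90% and 2.44%, and sclera titled control had 3.31%, 3.79% and 6.44%. Retina titled myopia had 5.16%, 6.29% and 4.99%, and retina titled control had 5.11%, 4.92% and 4.05%. Most retina arrays were above the sclera arrays, except that sclera titled control replicate 3 was the highest value of both tissues. Whole eye varied little, from 2.59% to 2.83% in the myopia group and from 2.39% to 2.79% in the control group. Retina was above whole eye by a log2 difference of 0.94 (SE 0.10, limma adjusted p = 2.91e-08) with no overlap. This call was lost after quantile normalization (0.29, limma adjusted p = 0.0560) and with normexp (0.18, 0.703), and the value was 0.39 when scaled over all miRNAs. Sclera was above whole eye by 0.35 (SE 0.10, limma adjusted p = 0.00415) with overlap, and the difference was −0.17 (limma adjusted p = 0.158) in the series value table.

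Between sclera and retina, miR-150-5p differed by −0.59 (SE 0.12, limma adjusted p = 7.88e-05), but this sign turned with the processing. It was 0.19 when arrays were scaled over all miRNAs (limma adjusted p = 0.131) and 0.29 after quantile normalization (0.0788), neither of which passed. With normexp background correction it was 0.94 (0.00799). The median sclera-minus-retina difference of all miRNAs moved as well. It was −0.81 as reported, −0.08 when scaled over all miRNAs, −0.14 after quantile normalization and 0.85 with normexp. Relative to that median, miR-150-5p lay at 0.22 as reported and between −0.11 and 0.44 over the 14 alternatives that kept the detection filter. Without the filter, where all 696 miRNAs enter the median, miR-150-5p lay at −0.59. miR-223-3p lay at 5.71 as reported and between 1.86, with normexp, and 5.98. The retina excess of miR-150-5p over whole eye, taken the same way, was 0.24 as reported and between 0.06 and 0.54 over the same 14 alternatives. Without the detection filter it was 0.94.

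**Figure D3:**
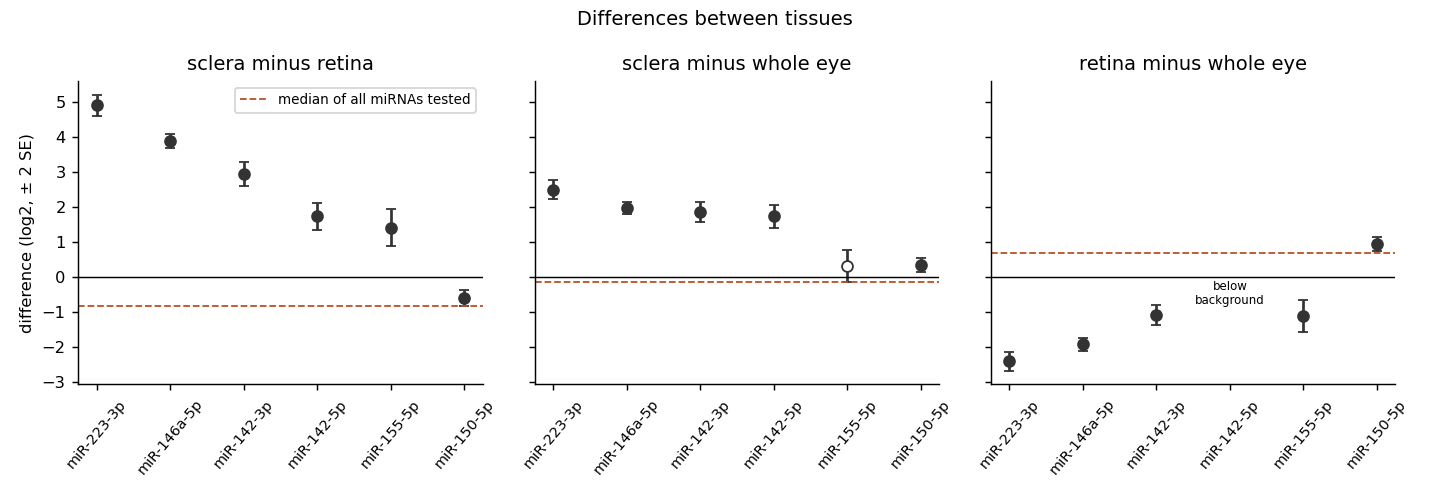
Log2 difference between tissues for each member with bars of 2 standard errors each side, for sclera minus retina (left), sclera minus whole eye (middle) and retina minus whole eye (right). Filled points passed the adjusted threshold of 0.05, the open point did not, and the dashed line is the median of all miRNAs tested (−0.81, −0.15 and 0.70). miR-142-5p is drawn filled, but its points and bars are not read as a test, because every retina and whole-eye array lay at the floor. miR-150-5p lies nearest to that line for sclera minus retina.

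Ratios within an array do not depend on its scaling factor, but they were taken with the scanner software's background subtraction alone. With normexp, where no ratio was taken, the sclera-minus-retina difference was 2.71 for miR-223-3p and 0.94 for miR-150-5p. The log2 ratio of miR-223-3p to miR-150-5p ran from 3.56 to 4.61 in sclera, against −1.997 to −0.20 in retina and 1.65 to 2.36 in whole eye. Sclera exceeded retina by 5.49 (exact permutation test over arrays, two-sided, p = 0.00216, adjusted 0.00216) with no overlap. For the ratio of miR-146a-5p to miR-150-5p the sclera-minus-retina difference was 4.48, and for miR-142-3p it was 3.54, each with the same p. The ratio of miR-142-3p to miR-150-5p overlapped between sclera (0.28 to 2.80) and whole eye (−0.22 to 0.87), with a difference of 1.53 (exact permutation p = 0.00129, adjusted 0.00193). A ratio shows that the 2 miRNAs changed unequally between tissues, and not which of them did. These pairs too were chosen after the values had been seen, so their p-values are not read as support. For 6 against 6 arrays, 0.00216 is the smallest p this test can give. How many other pairs of miRNAs separate the tissues in this way was not tested.

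**Figure D4:**
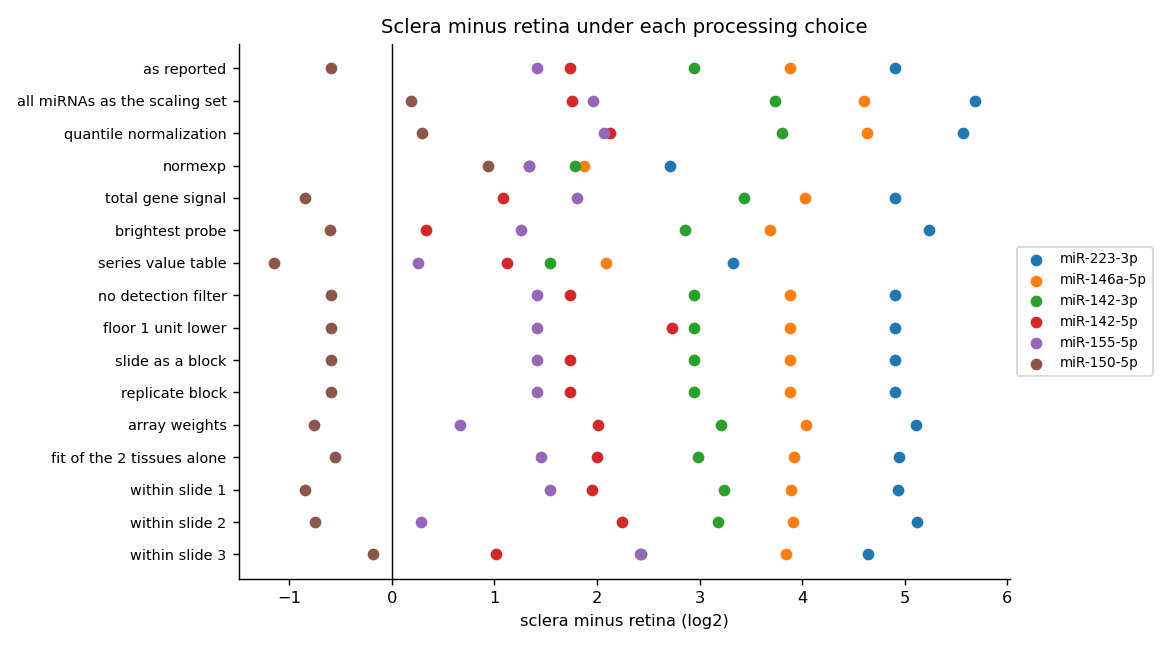
Sclera-minus-retina log2 difference of each member (colours) as reported and under each alternative way of processing (rows). miR-223-3p stays between 2.71 and 5.68, while miR-150-5p runs from −1.15 to 0.94 and crosses 0.

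In the other tissue comparisons, 4 of the 5 members without miR-142-5p were called between sclera and whole eye, all higher in sclera, where 70.9% of all miRNAs tested were called, 30.8% higher and 40.1% lower. The arrays did not overlap for 3 of the 5 and for 45.3% of all. Their median log2 difference was 1.88, against −0.15 for all. Between retina and whole eye, 5 of 5 were called, 4 lower and 1 higher in retina, where 88% of all were called, 23% lower and 65% higher. The 4 lower include miR-155-5p, which did not meet the detection filter in retina. The arrays did not overlap for 4 members and for 57.5% of all. Their median was −1.10, against 0.70 for all. With normexp only miR-223-3p remained called between retina and whole eye, at a log2 difference of −0.90. The split over all miRNAs was 277 higher and 98 lower in retina as reported, 181 and 137 when scaled over all miRNAs, 199 and 132 after quantile normalization, and 112 and 51 with normexp. For sclera against whole eye it was 131 and 171 as reported, 158 and 132 over all miRNAs, and 316 and 49 with normexp.

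Markers of other cell types also differed between these tissues, not all in the same order. miR-451, which erythrocytes hold in large amounts, stood at 98.7% to 122% in sclera, against 23.9% to 37.6% in retina and 35.5% to 78.4% in whole eye. It exceeded retina by a log2 difference of 1.86 in sclera (SE 0.15, limma adjusted p = 2.38e-10). Of the 5 miRNAs listed for erythrocytes, 2 were on the array, and miR-144-3p differed between sclera and retina by 0.41 (SE 0.29, limma adjusted p = 0.194). The 2 endothelial miRNAs, miR-126-3p and miR-126-5p, summed to 343% to 482% in sclera, against 115% to 137% in retina and 179% to 217% in whole eye. The 3 skeletal muscle miRNAs, miR-1a-3p, miR-133a-3p and miR-206-3p, summed to 214% to 419% in sclera, against 17.2% to 28.1% in retina and 79.4% to 139% in whole eye, the order that miR-223-3p had. The 3 cornea and lens epithelium miRNAs summed to 113% to 897% in sclera, against 10.8% to 455% in retina and 906% to 1729% in whole eye. For the 2 pigment epithelium miRNAs the sums were 695% to 1645%, 2135% to 2655% and 1976% to 2420%. The sum of the 7 retinal neuron and photoreceptor miRNAs varied from 271% to 1590% among sclera arrays. The part of blood, vessel, muscle, fibroblast, epithelial or neuronal RNA in the members' tissue differences was not tested.

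A wider list of 20 miRNAs with reported roles in leukocytes, which other tissues also express, is given beside them. Of its 19 tested members, 7 were higher and 11 lower in sclera than in retina, where 30.5% of all 426 miRNAs were higher and 58.7% lower. The median log2 difference was −0.93, close to −0.81 for all miRNAs. The 4 with the largest absolute differences were all lower in sclera: miR-132-3p at −4.41, miR-342-5p at −3.52, miR-181a-5p at −3.42 and miR-181b-5p at −3.20. Of these, miR-132-3p is known from neurons and the miR-181 family from lymphocytes and neurons. Highest in the list were miR-27a-3p at 2.73 and miR-24-3p at 2.31, which are named after their values were seen. miR-146b-5p is itself on this list. Against whole eye, 9 of the 19 were higher and 10 lower in sclera, where 30.8% of all were higher and 40.1% lower.

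Of all 420 other miRNAs tested, the 3 whose 6 group means were most like those of each member were named by root mean square distance on the log2 scale, after each miRNA's own mean was taken off. For miR-223-3p they were miR-152-3p (0.23), miR-455-3p (0.33) and miR-133b-3p (0.36), where the median distance was 2.37. miR-152-3p is also on the fibroblast and mesenchymal list, and miR-133b-3p belongs to the muscle miR-133 family. For miR-146a-5p they were miR-455-3p (0.13), miR-455-5p (0.20) and miR-23a-3p (0.25). For miR-142-3p they were miR-322-5p (0.16), miR-27a-3p (0.19) and miR-24-2-5p (0.21). miR-223-3p and miR-146a-5p lay 0.42 apart, and miR-223-3p and miR-150-5p 2.27 apart. For miR-142-5p, whose retina and whole-eye means lie at the floor, they were miR-22-3p (0.17), miR-140-5p (0.18) and miR-681 (0.19). For miR-155-5p the nearest was miR-1939_v16.0 (0.14) and for miR-150-5p miR-1906 (0.16).

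Between form-deprived and control whole eyes, 0 of the 5 members tested passed the threshold, where 10.3% of 341 miRNAs were called, all higher in myopia. After quantile normalization 96 miRNAs were called, 32 higher and 64 lower. In the comparisons of arms, signals were scaled within each tissue, so percentages differ from those above. miR-146a-5p ran from 5.95% through a median of 6.26% to 7.04% in myopia eyes, and from 4.84% through 5.57% to 6.07% in control eyes. Its log2 difference of 0.22 (SE 0.07, unadjusted p = 0.00843 and limma adjusted p = 0.0777) missed the threshold, and it passed with the slide as a block (limma adjusted p = 0.0299), without control replicate 2 (0.0459) or without control replicate 5 (0.0359). When scaled over all miRNAs its value was 0.01, and after quantile normalization it was −0.22, on the other side of 0.

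miR-155-5p ran from 2.60% through 3.01% to 4.10% in myopia eyes and from 2.46% through 2.72% to 2.84% in control eyes, a log2 difference of 0.27 (SE 0.11, limma adjusted p = 0.171). It passed with array weights at 0.32 (limma adjusted p = 0.0486) and within slide 1 at 0.66 (limma adjusted p = 0.0377), and was 0.14 and 0.02 within slides 2 and 3. After quantile normalization it was −0.31. miR-150-5p, miR-223-3p and miR-142-3p had log2 differences of 0.13, 0.08 and 0.05, with limma adjusted p-values of 0.323, 0.652 and 0.883. The interval for miR-223-3p ran from −0.11 to 0.28, and that for miR-142-3p from −0.23 to 0.33. The groups overlapped for all 5 tested members, where 9.68% of all miRNAs tested did not overlap. The members' median was 0.13, and that of all miRNAs was 0.08. Myopia arrays were also brighter, with 226 to 487 units at the bright corner control spots, against 137 to 230 on control arrays, and the part of this in the differences was not tested.

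In retina, 0 of the 4 members tested passed between the titled arms, and 0% of 396 miRNAs tested were called by limma (20 at an unadjusted p under 0.05). The count over all miRNAs was 64 with array weights, 51 in the fit of all 24 arrays and 55 without retina titled control replicate 1, and the count of members stayed at 0 in each. miR-142-5p and miR-155-5p were detected on too few retina arrays to be tested. miR-146a-5p had 1.20%, 1.62% and 1.68% on the titled myopia arrays and 1.89%, 1.77% and 2.07% on the titled control arrays. These did not overlap, as for 10.4% of all miRNAs tested, and the log2 difference was −0.36 (SE 0.17, limma adjusted p = 0.537). miR-223-3p had 2.42%, 2.47% and 3.38% in titled myopia and 3.23%, 3.03% and 5.66% in titled control, with overlap and a log2 difference of −0.48 (SE 0.29, limma adjusted p = 0.624). Its high value was titled control replicate 3, and without that array the difference was −0.24. miR-142-3p and miR-150-5p had log2 differences of −0.24 and 0.17, with limma adjusted p-values of 0.761 and 0.826.

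In sclera, 0 of 6 members passed between the titled arms, and 0% of 311 miRNAs tested were called by limma (7 at an unadjusted p under 0.05). miR-142-3p had 20.9%, 25.8% and 22.3% in titled myopia and 19.3%, 19.9% and 8.57% in titled control, a log2 difference of 0.62 (SE 0.35, limma adjusted p = 0.887). The arms did not overlap, and without titled control replicate 3 the difference was 0.16. miR-150-5p had 3.29%, 4.18% and 3.21% in titled myopia and 4.19%, 4.95% and 7.05% in titled control. It also did not overlap, at a log2 difference of −0.58 (SE 0.23, unadjusted p = 0.0473 and limma adjusted p = 0.887), and stood at −0.43 without titled control replicate 3. These 2 members compare with 13.2% of all miRNAs tested whose arms did not overlap. The log2 difference was 0.66 for miR-142-5p, −0.24 for miR-155-5p, −0.03 for miR-146a-5p and −0.00 for miR-223-3p, the last with an interval of −0.27 to 0.26. miR-451 differed by 0.42 between the same arms (SE 0.14, limma adjusted p = 0.887), and its part in these values was not tested.

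**Figure D5:**
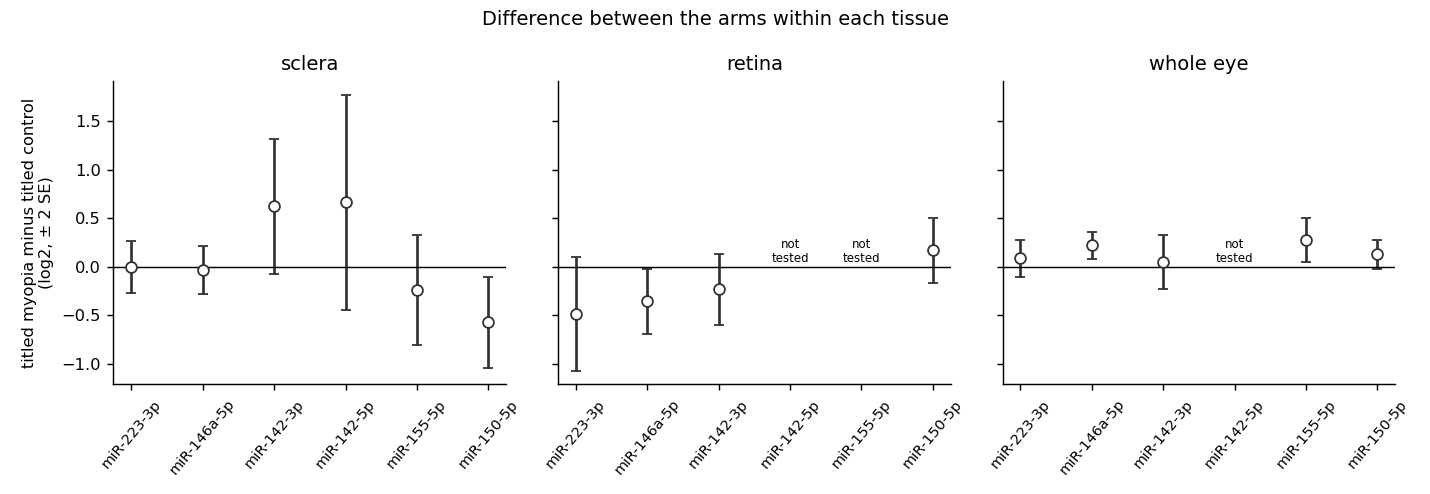
Log2 difference between titled myopia and titled control in sclera (left), retina (middle) and whole eye (right) for each member, with bars of 2 standard errors each side, each tissue scaled alone. All points are open because none passed the adjusted threshold of 0.05; miR-142-5p was not tested in retina and whole eye, nor miR-155-5p in retina.

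The difference of the titled arm effect between tissues was tested in 1 fit of all 24 arrays. Only miR-150-5p passed. Its effect in sclera minus that in whole eye was −0.78 (SE 0.20, limma adjusted p = 0.0484), where 2.35% of 426 miRNAs were called. Its effect in retina minus that in sclera was 0.97 (SE 0.23, limma adjusted p = 0.0441), where 1.64% were called. Both lay just inside the threshold, and the 2 comparisons share the sclera arrays. Leaving out 1 array at a time ended the first call in 19 of 24 cases and the second in 21 of 24. Without sclera titled control replicate 3 the values were −0.51 (limma adjusted p = 0.0938) and 0.70 (limma adjusted p = 0.0533). With the arms taken from the phenotype field the signs turned, to 0.70 (limma adjusted p = 0.0914) and −0.97 (limma adjusted p = 0.0441). Between retina and whole eye no member passed, where 1.17% of all were called. The 5 miRNAs called there became 81, all lower, with the arms from the phenotype field, 48 with array weights and 31 without retina titled control replicate 1.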

How the data were processed

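RNA from 24 samples was labelled with Cy3 and hybridised to 24 Agilent mouse miRNA arrays, per the labels. The deposited scanner files hold spot intensity values. Agilent Feature Extraction subtracted background and called each miRNA detected or not, per the file headers; the submitters' processing notes give version 11. A series value table deposited by the authors holds log2 values per probe (tool not given in the sources used here). For bright probes these lay close to the log2 of the unscaled scanner signal, and they were fitted here without array scaling.

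Spots of a probe were averaged without outliers, probes of a miRNA summed, and each array divided by its 75th percentile over the miRNAs that every array in that fit detected. A floor, the arrays' median of their dimmest detected value, was set before taking log2. Testing required detection on 2 or more of each 3 arrays in some group. limma 3.58.1 in R 4.3.3 (lmFit, eBayes, two-sided) tested arms within each tissue, and tissues in 1 fit of all 24 arrays, with Benjamini-Hochberg adjustment over all miRNAs tested and a threshold of 0.05. Scripts were tested on simulated data. Python 3.11.15, numpy 2.4.6, pandas 2.3.3 and matplotlib 3.10.9 did the rest. Groups follow the sample titles. Slides 1 to 3 each held all groups, while each position on a slide held arrays of 1 group only, so position and group cannot be told apart. The alternatives were other scalings, normexp (offset 50), other probe summaries, the series value table, no detection filter, a lower floor, blocks, array weights, single slides and leaving out each array.

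The members, lists and named miRNAs were chosen with earlier results of these data known. Named beside the members were other strands of their hairpins, array miRNAs sharing a seed, the largest differences in each list, and the 3 miRNAs of most similar group means. Every column of per-sample values was mapped (0 left out).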

Additional observations from a re-analysis of the deposited data

Results flagged for a closer look

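In whole eye, miR-142-3p was lowest on myopia replicate 1, at 2.43% of the array's 75th percentile, and its gap to the next array was 0.631 of the whole range of the 6 myopia arrays. It was the only such array among 10 group tests of the members in whole eye, where chance alone marks about 1 in 20. The difference of the titled arm effect of miR-150-5p passed the threshold between sclera and whole eye (log2 −0.781) and between retina and sclera (log2 0.965), as described above.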

How the results depend on the processing

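With miR-142-5p counted where tested, members called between sclera and retina stayed at 5 or 6 and between sclera and whole eye at 4 to 6 under all alternatives run. These counts are no measure of stability for miR-142-5p, whose calls were set by the filter and the floor. The same holds for miR-155-5p against retina, where it did not meet the filter. Of all 426 miRNAs, 313 were called between sclera and retina with normexp and 393 with array weights. Between sclera and whole eye, 261 were called within slide 3 and 365 with normexp. For retina minus whole eye the count of members was 5 as reported and 1 with normexp, where 375 and 163 of 426 miRNAs were called. The sclera-minus-retina difference of miR-150-5p changed sign with all miRNAs as the scaling set (0.19) and quantile normalization (0.29), where it was not called. It also changed sign with normexp (0.94), where it was called. The sclera-minus-whole-eye difference of miR-150-5p was −0.17 in the series value table. Between whole-eye arms 1 member was called with the slide as a block, with array weights and within slide 1, and 0 to 1 when single arrays were left out. Over all miRNAs, 44, 50 and 20 of 341 were called in the first settings, and 34 to 42 without single arrays. Between sclera arms 1 member, miR-150-5p, was called in the fit of all 24 arrays, where 2 of 426 miRNAs were called, all lower.

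For the arm effect, the retina-minus-whole-eye count of members was 1 when scaled over all miRNAs and with array weights. In these settings 8 and 48 of 426 miRNAs were called. The sclera-minus-whole-eye count was 0 over all miRNAs, with quantile normalization, normexp, the brightest probe, the series value table, no detection filter, the slide block, the replicate block and the phenotype arms (0.70 for miR-150-5p), and 0 to 1 without single arrays. It held without sclera titled control replicate 1 or 2, retina titled control replicate 1 or 3, or retina titled myopia replicate 2. Over all miRNAs, 14, 9, 25, 19 and 8 were called in that order. The retina-minus-sclera count was 0 over all miRNAs, with quantile normalization, normexp, the series value table, no detection filter and a lower floor, and 0 to 1 without single arrays. With array weights it was 2, where 105 of 426 miRNAs were called and miR-155-5p stood at −1.37. The count of 1 held without sclera titled control replicate 1, retina titled control replicate 1 or retina titled myopia replicate 3. Over all miRNAs, 5, 82 and 25 were called in that order. With the phenotype arms miR-150-5p stood at −0.97. The cause was not tested.

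Same-numbered arrays correlated from −0.37 to 0.64 within tissues. This does not settle whether the numbers pair the samples, since the labels do not say which animals an array held. With the replicate block, the sclera-minus-whole-eye arm effect of miR-150-5p was −0.78 (limma adjusted p = 0.0657), and no other count of members called changed.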

Other observations

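Of the other strands of the members' hairpins, miR-150-3p was on the array and detected on 0 of 24 arrays. miR-223-5p, miR-155-3p and miR-146a-3p are not analysed here. Among the wider leukocyte list, 2 of 19 tested miRNAs passed between whole-eye arms, both higher in myopia, a share near the 10.3% of all miRNAs called there: miR-342-5p by a log2 difference of 0.40 (SE 0.08, limma adjusted p = 0.00563) and miR-652-3p by 0.38 (SE 0.07, limma adjusted p = 0.00364).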
